A study of Mus musculus with 70 samples.

Results

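The annexin family was followed through 4 sorted mouse leukocyte populations, with 8 members chosen by name (Anxa1, Anxa2, Anxa3, Anxa4, Anxa5, Anxa6, Anxa7 and Anxa11) out of the 52636 genes in the count table. The cells came from C57BL/6J mice aged 7 to 8 weeks, and no transgene or drug is named for any group. Unstressed controls (CON) were compared with mice put through chronic social defeat stress (CSDS) for 10 days, in which a larger, aggressive CD-1 male subordinates the test mouse. Defeated mice were split by their social interaction (SI) ratio, a measure of time spent near a new CD-1 mouse relative to an empty enclosure, into stress-susceptible mice (SUS, ratio below 1) and resilient mice (RES, ratio of 1 or more). Flow cytometry was used to sort Ly6Chigh and Ly6Clow monocytes along with T and B cells, each of which was sequenced in bulk. After 2 of 70 libraries were left out, each group held 6 libraries, except 4 for Ly6Clow monocytes of CON mice, 5 for B cells of RES mice and 5 for T cells of RES mice. Brain is named as the source in the labels, whereas the series design and the study's methods describe trunk blood, and the labels do not name the mouse behind each library. The p-values therefore measure the spread between libraries.

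Annexins are cytosolic proteins that bind negatively charged phospholipids in a Ca2+-dependent way and so attach to membranes when cytosolic Ca2+ rises. Anxa1 is a glucocorticoid-inducible mediator of the resolution of inflammation that acts through formyl peptide receptors on myeloid cells. Anxa2 forms a complex with the S100 protein S100a10 at the cell surface, where it binds plasminogen and tissue plasminogen activator, and Anxa5 binds phosphatidylserine exposed on activated or dying cells. Anxa6, which carries a duplicated annexin core, is linked to endosomes and membrane cholesterol. Anxa7 and Anxa11 have long amino-terminal tails and bind sorcin and the Ca2+-binding protein Pdcd6, while Anxa3 is a marker of myeloid cells and Anxa4 is best known from secretory epithelia.

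In mm10 coordinates, Anxa1 (ENSMUSG00000024659) lies at chr19:20373428-20390944 on the minus strand, Anxa2 (ENSMUSG00000032231) at chr9:69453620-69491795 on the plus strand and Anxa5 (ENSMUSG00000027712) at chr3:36448923-36475894 on the minus strand. These 3 members had an adjusted p below 0.05 for SUS vs. CON in Ly6Chigh monocytes, though none had an absolute log2 fold change above 1. The 250 bases before the RefSeq start of each are shown for that reason. The windows are chr19:20390672-20390921 (minus strand), chr9:69453433-69453682 (plus strand) and chr3:36475888-36476137 (minus strand) of GRCm38.p6, written 5′ to 3′ along the gene.
Anxa1: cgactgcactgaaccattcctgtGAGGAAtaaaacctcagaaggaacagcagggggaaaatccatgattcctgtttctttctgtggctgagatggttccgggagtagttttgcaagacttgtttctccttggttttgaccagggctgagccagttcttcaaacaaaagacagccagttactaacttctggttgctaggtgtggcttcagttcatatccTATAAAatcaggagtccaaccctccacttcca
Anxa2: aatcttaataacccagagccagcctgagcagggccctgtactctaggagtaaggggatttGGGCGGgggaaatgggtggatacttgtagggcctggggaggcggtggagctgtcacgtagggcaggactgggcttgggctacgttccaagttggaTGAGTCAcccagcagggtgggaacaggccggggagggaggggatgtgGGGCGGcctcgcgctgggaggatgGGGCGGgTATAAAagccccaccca
Anxa5: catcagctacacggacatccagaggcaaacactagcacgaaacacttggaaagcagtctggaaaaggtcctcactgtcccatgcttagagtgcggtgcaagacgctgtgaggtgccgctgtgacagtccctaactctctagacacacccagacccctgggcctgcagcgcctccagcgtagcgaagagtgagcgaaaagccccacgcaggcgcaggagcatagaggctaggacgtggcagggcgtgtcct
Capitals mark matches, on either strand, to a TATA box (TATAAA), AP-1 (TGANTCA), a glucocorticoid receptor half-site (AGAACA), PU.1 (GAGGAA) or Sp1 (GGGCGG), which do not overlap one another in these windows. The Anxa1 window lies wholly inside the gene span given above, and the Anxa2 and Anxa5 windows overlap theirs at the 3′ end. RefSeq starts thus differ from the ends of those spans, and positions here are counted from the RefSeq start. The Anxa1 window held a TATA box 32 to 27 bases before the RefSeq start and a PU.1 match 227 to 222 bases before it. The Anxa2 window held a TATA box 17 to 12 bases before the RefSeq start, which is inside the gene span given above. It also held 1 AP-1 match 95 to 89 bases before that start and 3 Sp1 matches. None of the 5 motifs was found in the Anxa5 window. Among 32851 RefSeq promoter windows of the same length, 12.4% held the TATA box, 6.75% AP-1, 16.1% the glucocorticoid receptor half-site, 23.3% PU.1 and 32.7% Sp1. A promoter was found for 6 of the 8 members.

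The other members are Anxa3 (ENSMUSG00000029484, chr5:96793339-96845966, plus strand), Anxa4 (ENSMUSG00000029994, chr6:86736840-86793584, minus strand), Anxa6 (ENSMUSG00000018340, chr11:54979108-55033445, minus strand), Anxa7 (ENSMUSG00000021814, chr14:20455260-20480133, minus strand) and Anxa11 (ENSMUSG00000021866, chr14:25842156-25886804, plus strand). Other genes overlap 6 of these loci. Transcripts on the opposite strand lie over Anxa1 (1500015L24Rik), Anxa2 (Gm16144), Anxa4 (Gm44036) and Anxa11 (Anxa11os), Gm42603 overlaps Anxa3 on the same strand, and microRNA genes lie within Anxa2 and Anxa5. The strand option used in counting is not given in the sources used here, so reads of such pairs cannot be told apart with certainty. Those overlapping genes were counted at far lower levels than the members in Ly6Chigh monocytes, for example 0.546 to 8.38 CPM (counts scaled to library size) for Gm16144 in CON mice.

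Library totals ran from 19769835 to 67038231 counts, with a median of 37105583.5, and apart from Anxa3 in lymphocytes and Anxa4 in T cells every member had at least 27 counts in every library. In CON libraries, the summed CPM of 4 Ly6C-high monocyte markers was 3982 or more in Ly6Chigh monocytes, that of 5 Ly6C-low markers was 5555 or more in Ly6Clow monocytes, and the B and T cell markers reached at least 4906 and 1665 in their own populations. Natural killer cell markers (5 genes) summed to 259 to 879 CPM in Ly6Clow monocytes of CON mice, against 55.2 to 127 in T cells and at most 39.7 in Ly6Chigh monocytes. The libraries left out went against their labels: number 52, labelled B cells of a RES mouse, had 412 CPM of the T cell gene Cd3e and 5.76 CPM of the B cell gene Cd79a, and number 70, labelled T cells of a RES mouse, had 0.143 CPM of Cd3e and 1417 CPM of Cd79a. Libraries are numbered here as in their titles.

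Without stress, Anxa1 to Anxa5 were each higher in every monocyte library than in any lymphocyte library. These members and Anxa7 had their highest mean in Ly6Chigh monocytes. The share of all genes with such an order was not counted, so it is not read as a trait of the family. Anxa2 was the most abundant member in Ly6Chigh monocytes by CPM, at 512 ± 39.5 CPM (SD, n = 6), against 240 ± 37.6 in Ly6Clow monocytes (n = 4), 34.0 ± 11.8 in T cells (n = 6) and 7.00 ± 2.24 in B cells (n = 6). Each step of that order was without overlap between libraries. Anxa1 fell from 261 ± 27.5 CPM in Ly6Chigh monocytes to 71.1 ± 10.1 in Ly6Clow monocytes, then to 12.5 ± 11.1 in B and 3.28 ± 3.10 in T cells, and only the B and T cell libraries overlapped. For Anxa5 the means were 240 ± 19.3 CPM in Ly6Chigh monocytes, 85.1 ± 6.13 in Ly6Clow monocytes, 32.7 ± 4.14 in T cells and 17.7 ± 5.05 in B cells, again with no overlap between neighbours. Anxa4 averaged 52.5 ± 5.40 CPM in Ly6Chigh monocytes, 16.7 ± 2.22 in Ly6Clow monocytes, 5.36 ± 2.13 in B and 0.837 ± 0.609 in T cells. Both of the latter members were thus ordered completely, but Anxa5 was lowest in B cells and Anxa4 in T cells.

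Anxa3 was the member most restricted to monocytes. Its libraries spanned 26.5 to 44.8 CPM in Ly6Chigh monocytes and 2.35 to 6.98 CPM in Ly6Clow monocytes of CON mice. T cells held 24 Anxa3 counts over 6 libraries, 20 of them in library 59, and all 6 B cell libraries were at 0. Against a floor of 3 counts over the B cell group, Anxa3 was at least 2399-fold higher in Ly6Chigh and at least 333-fold higher in Ly6Clow monocytes, where the floor covers counting error only.

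Anxa6 and Anxa11 did not follow that order, and Anxa7 did so only with overlap. Anxa6 was highest in T cells, at 404 ± 33.8 CPM, followed by 268 ± 34.8 in B cells, 215 ± 7.98 in Ly6Chigh and 149 ± 16.3 in Ly6Clow monocytes, with overlap only between B cells and Ly6Chigh monocytes. Anxa7 ranged from 96.4 ± 11.5 CPM in Ly6Chigh monocytes through 67.9 ± 7.08 in Ly6Clow monocytes and 52.9 ± 6.28 in B cells to 35.9 ± 6.55 in T cells, and its Ly6Clow, B and T cell values overlapped between neighbours. Anxa11 lay between 27.0 and 30.8 CPM on average in all 4 populations, and its libraries overlapped throughout.

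**Figure D1:**
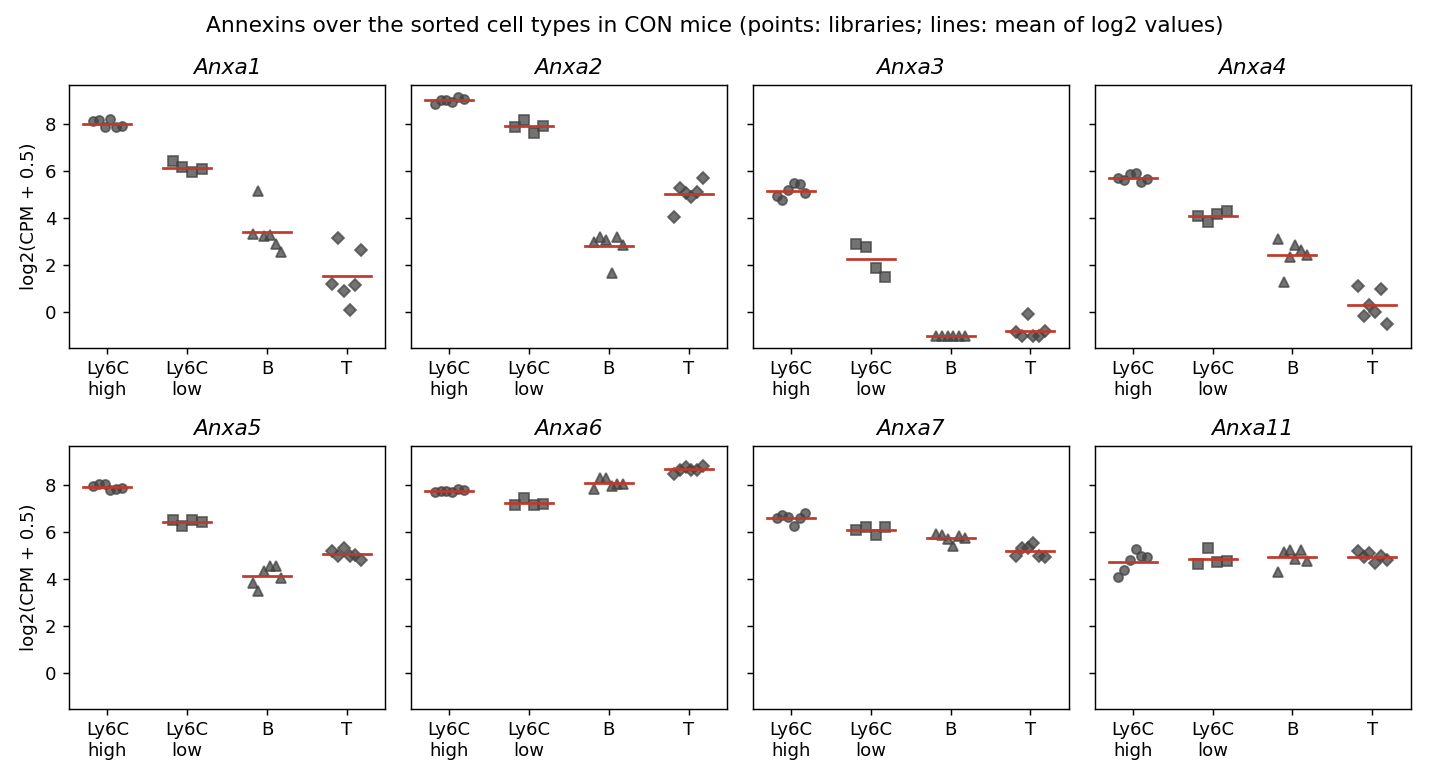
Normalized CPM (log axis) of each annexin in the CON libraries of the 4 sorted cell types, with points for libraries and bars for means. The Anxa1 to Anxa5 points step down from monocytes to lymphocytes. Anxa6 is highest in T cells (arithmetic mean 404 CPM), and Anxa11 is level (arithmetic means 27.0 to 30.8 CPM).

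These differences were tested in one fit to the 22 CON libraries with edgeR's quasi-likelihood test, with Benjamini-Hochberg adjustment over 21032 genes, and calls needed both an adjusted p below 0.05 and an absolute log2 fold change above 1. Between Ly6Chigh and Ly6Clow monocytes 5 of 8 members were called, where 11.2% of all genes were called. All 5 were higher in Ly6Chigh monocytes: Anxa3 by 2.90 on the log2 scale (SE 0.70, adjusted p = 0.00670), Anxa1 by 1.87 (SE 0.59, adjusted p = 0.0322), Anxa4 by 1.65 (SE 0.37, adjusted p = 0.00214), Anxa5 by 1.49 (SE 0.16, adjusted p = 1.17e-07) and Anxa2 by 1.08 (SE 0.26, adjusted p = 0.00426). The Anxa1 call was lost when any 1 of the 4 Ly6Clow libraries (21, 24, 29 or 32) was left out, with adjusted p from 0.0615 to 0.0833, and without the low-count filter, at 0.0516. Anxa6 and Anxa7 were higher in Ly6Chigh monocytes by 0.52 and 0.49 and passed the adjusted p alone, so that 7 of 8 members did, against 19.3% of all genes.

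Each monocyte population was then set against lymphocytes. Ly6Chigh monocytes differed from B cells in 5 called members (33.1% of all genes) and from T cells in 6 (32.8%), and Ly6Clow monocytes differed from B cells in 5 (30.3%) and from T cells in 6 (28.5%). Anxa2 stood 6.23 log2 units (SE 0.28, adjusted p = 6.78e-14) higher in Ly6Chigh monocytes than in B cells and 3.92 (SE 0.25, adjusted p = 2.07e-11) higher than in T cells. For Anxa1 the larger difference was with T cells, at 6.31 (SE 0.63, adjusted p = 6.91e-08), against 4.43 (SE 0.57) with B cells. Anxa6 was the only called member with the lower value in monocytes, at -1.43 (SE 0.10, adjusted p = 6.27e-12) for Ly6Clow monocytes against T cells. Its -0.91 for Ly6Chigh monocytes against T cells passed the adjusted p alone. The smaller Anxa6 difference between Ly6Chigh monocytes and B cells, -0.28 (adjusted p = 0.00894), shrank to -0.07 (adjusted p = 0.533) with offsets for GC content and gene length. On the adjusted p alone, 7 of 8 members passed in each of those 4 pairs, where 47.0%, 45.7%, 42.5% and 39.4% of all genes did, in the order given. The Anxa7 difference between Ly6Clow monocytes and B cells (0.41, adjusted p = 0.0138) did not pass with GC and length offsets (adjusted p = 0.0854) or without B cell library 44 (adjusted p = 0.0589).

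B and T cells differed from each other in 4 called members, where 20.2% of all genes were called. Anxa4 (2.63, SE 0.35, adjusted p = 1.54e-06) and Anxa1 (1.88, SE 0.53, adjusted p = 0.0104) were higher in B cells, and Anxa2 was higher in T cells, at -2.31 (SE 0.24, adjusted p = 9.34e-08). Without B cell library 38, the highest for Anxa1, its difference was 1.27 (adjusted p = 0.0388), and without T cell library 56 it was 2.51. The 4th was Anxa3 (adjusted p = 0.0319), whose call was lost without T cell library 59 (adjusted p = 0.0935), B cell library 35 (0.0503) or B cell library 41 (0.0534), without the low-count filter (0.0596) and in the fit to all 12 groups (0.0683). Anxa5 and Anxa6 were lower in B cells by 0.92 and 0.63 and Anxa7 higher by 0.52, which brought the members past the adjusted p alone to 7, against 31.4% of all genes. Anxa11 passed in none of the 6 pairs, with adjusted p from 0.507 to 0.953.

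Divided by the summed exon length of each gene, the levels could be set against one another within a cell type. In Ly6Chigh monocytes of CON mice, Anxa2 and Anxa5 were level at 137 and 135 CPM per kb, which were 28.7% and 28.2% of the family total, followed by Anxa1 at 89.5 and Anxa6 at 73.4 CPM per kb. Anxa7, Anxa4, Anxa3 and Anxa11 lay between 16.1 and 6.54 CPM per kb. With the longest transcript as the length, Anxa2 (225 CPM per kb) was above Anxa1 (156) and Anxa5 (139), so that Anxa2 and Anxa5 were no longer level. In lymphocytes, Anxa6 dominated, with 73.2% of the per-length total in B cells and 76.6% in T cells, against 15.3% in Ly6Chigh and 24.2% in Ly6Clow monocytes.

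**Figure D2:**
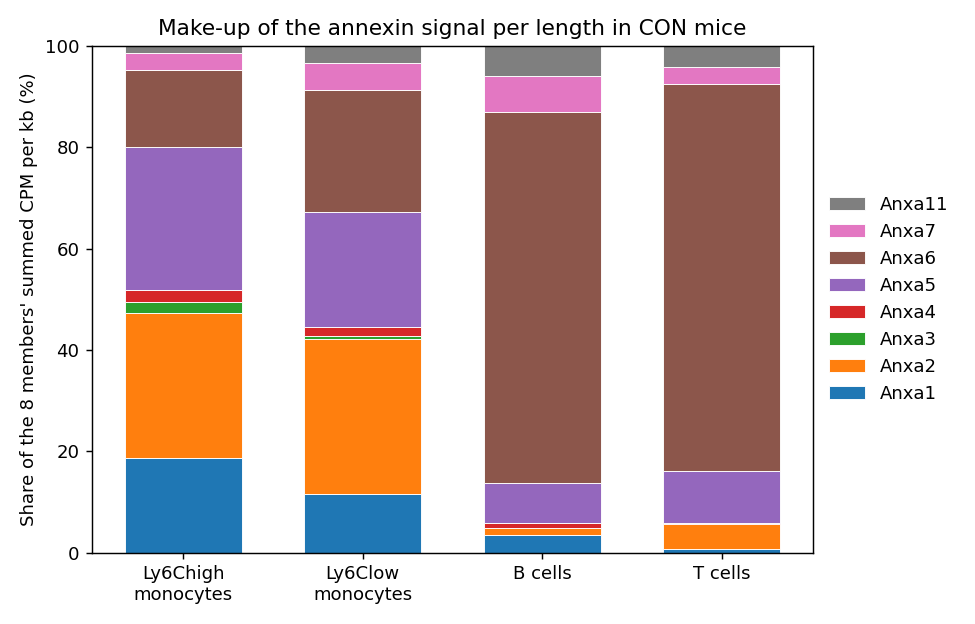
Share (percent) of each member in the family's summed CPM per kb of exon in CON mice, 1 bar per sorted cell type. Anxa6 takes 73.2% of the bar in B cells and 76.6% in T cells, whereas Anxa2, Anxa5 and Anxa1 take 28.7%, 28.2% and 18.7% in Ly6Chigh monocytes.

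After defeat stress, 3 annexins rose in Ly6Chigh monocytes of SUS mice (Anxa2, Anxa1 and Anxa5) and 1 in those of RES mice (Anxa2), on the adjusted p alone, which 12.6% and 4.97% of all genes passed. With red cell or platelet markers as a covariate no member passed for either group, and the Anxa2 call for RES mice was also lost with size factors, with the neutrophil covariate and in 12 of 18 fits that left out 1 library. Because these are bulk libraries, a change in the cells that make up a sort and a change in RNA per cell cannot be told apart. Anxa2, the plasminogen receptor subunit, was at 457 to 569 CPM in CON mice (median 512), 623 to 1673 in SUS mice (median 995) and 592 to 1196 in RES mice (median 811). All 6 SUS and all 6 RES libraries lay above every CON library, and SUS and RES libraries overlapped. In the fit within Ly6Chigh monocytes the Anxa2 log2 fold change was 0.95 (SE 0.20, adjusted p = 0.00431) for SUS vs. CON and 0.71 (SE 0.20, adjusted p = 0.0446) for RES vs. CON.

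Anxa1, the glucocorticoid-inducible member, was at 231 to 293 CPM in CON mice (median 259), 268 to 528 in SUS mice (median 431) and 272 to 357 in RES mice (median 324). In SUS and in RES mice 4 of 6 libraries were above all CON libraries, and the others fell within the CON range. Its log2 fold change was 0.61 (SE 0.15, adjusted p = 0.0107) for SUS vs. CON, and 0.28 (adjusted p = 0.302) for RES vs. CON. Anxa5, the phosphatidylserine binder, was at 218 to 264 CPM in CON mice (median 237), 261 to 410 in SUS mice (median 323) and 235 to 381 in RES mice (median 334). It exceeded all CON libraries in 5 of 6 libraries of each stressed group. The log2 fold change of Anxa5 was 0.44 (SE 0.13, adjusted p = 0.0306) for SUS vs. CON and 0.40 (adjusted p = 0.0788) for RES vs. CON.

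The remaining 5 members had adjusted p-values above the threshold. Anxa6 was at 207 to 227 CPM in CON and 190 to 523 in SUS mice (0.46, SE 0.18, adjusted p = 0.0967), with 4 SUS libraries above and 1 below all CON libraries. Anxa7 was at 75.9 to 109 CPM in CON and 96.8 to 162 in SUS mice (0.39, SE 0.14, adjusted p = 0.0769), with 4 SUS libraries above. Anxa11 was at 16.2 to 37.8 and 24.7 to 74.5 CPM (0.53, SE 0.30, adjusted p = 0.261), and Anxa4, which had the smallest log2 fold change, was at 45.7 to 59.2 and 47.1 to 62.3 CPM (0.05, SE 0.13, adjusted p = 0.861). Anxa3 split the SUS libraries: 3 lay above all CON libraries, up to 77.6 CPM, and 3 below, down to 21.8 CPM, around a CON range of 26.5 to 44.8 CPM. Its log2 fold change was 0.32 (SE 0.28, adjusted p = 0.514).

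**Figure D3:**
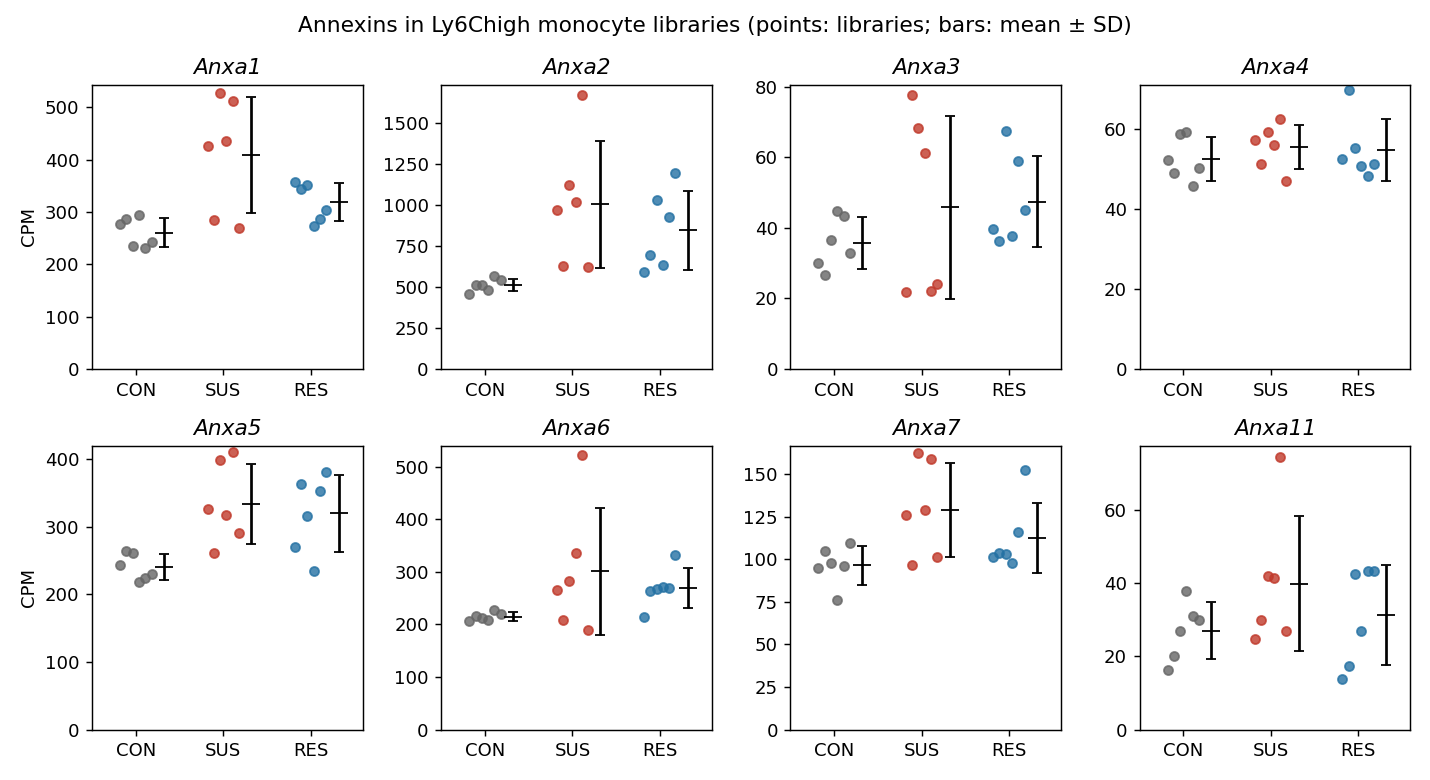
Normalized CPM of the 8 annexins in Ly6Chigh monocytes of CON, SUS and RES mice, with 1 point per library and bars of mean ± SD. For Anxa2, every SUS library (623 to 1673 CPM) and every RES library (592 to 1196) is above the highest CON library (569), while Anxa4 points overlap in all 3 conditions.

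Counted by both thresholds, 0 of 8 members were called in Ly6Chigh monocytes for SUS vs. CON, where 3.45% of 16955 genes were called, and 0 of 8 for RES vs. CON, where 0.997% were, by edgeR. DESeq2 also called 0 of 8 in both, beside 815 and 506 of 28758 genes. At an unadjusted p below 0.05 the members numbered 5 and 2, where 26.5% and 21.2% of all genes passed. All 8 log2 fold changes were above 0 in both contrasts, with medians of 0.45 and 0.30, beside medians over all genes of -0.05 and -0.03. Both contrasts share the CON libraries. The summed CPM of the 8 members was 1440 ± 37.2 for CON, 2321 ± 694 for SUS and 1999 ± 347 for RES mice. Between the stressed groups, 0 of 8 members were called for SUS vs. RES by edgeR, where 0.0% of genes were, and 0 by DESeq2, which called 20 genes. Anxa1 alone had an unadjusted p below 0.05, as 3.66% of all genes had (0.33, SE 0.15, adjusted p = 0.999 by edgeR's quasi-likelihood test).

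Anxa2 and Anxa1 passed the adjusted p for SUS vs. CON in each of 18 fits that left out 1 library, whereas Anxa5 passed in 13 of 18. Without SUS library 14, which had the highest Anxa2, Anxa6 and Anxa11 values, the log2 fold changes were 0.70 for Anxa2 (adjusted p = 0.00808), 0.50 for Anxa1, 0.34 for Anxa5 (adjusted p = 0.0846), 0.19 for Anxa6 and 0.21 for Anxa11. Anxa5 also missed the threshold with GC and length offsets (0.18, adjusted p = 0.318) and with size factors in place of TMM (0.38, adjusted p = 0.0528), and Anxa1 did so in a fit to all 12 groups (0.65, adjusted p = 0.188). For RES vs. CON, Anxa2 passed in 6 of 18 such fits, with adjusted p from 0.00654 to 0.133.

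Red cell transcripts moved with the same contrast. The summed CPM of 6 red cell markers (Hba-a1, Hba-a2, Hbb-bs, Hbb-bt, Alas2 and Slc4a1) in Ly6Chigh monocytes was 343 to 1215 for CON, 1097 to 8988 for SUS and 1077 to 4348 for RES mice, with 5 of 6 libraries of each stressed group above all CON libraries and no marker at 0. All 6 markers were called up for SUS vs. CON and 1 for RES vs. CON. With the red cell level as a covariate, the SUS vs. CON log2 fold changes were 0.31 for Anxa2 (adjusted p = 0.870), 0.28 for Anxa1 (adjusted p = 0.850) and 0.11 for Anxa5 (adjusted p = 0.971), and that of Anxa2 for RES vs. CON was 0.19 (adjusted p = 0.998). Only 2 of 16955 genes passed the adjusted p for SUS vs. CON in that fit and 0 for RES vs. CON. SUS library 5 and RES library 3 had red cell sums within the CON range, 1097 and 1077 CPM, and Anxa2 levels of 628 and 592 CPM, above all CON libraries. Library 14 was highest on both, at 8988 and 1673 CPM. The part of red cell RNA in the Anxa2, Anxa1 and Anxa5 differences was not tested beyond these values.

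**Figure D4:**
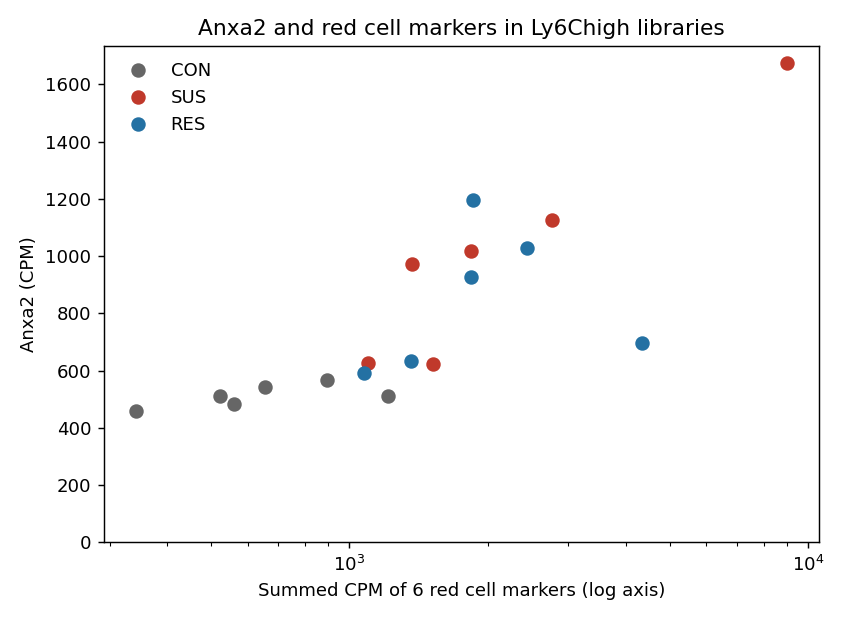
Anxa2 CPM against the summed CPM of 6 red cell markers (log axis) in the 18 Ly6Chigh libraries, coloured by condition. CON libraries reach at most 569 CPM of Anxa2, SUS library 14 is at the upper right (8988 and 1673 CPM), and 2 stressed libraries within the CON range of red cell markers are above all CON libraries in Anxa2.

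Markers of other cell types that the sort could hold were summed in the same way. The sum of 6 platelet markers was 8.91 to 17.0 CPM in CON, 10.4 to 56.8 in SUS and 11.3 to 29.3 in RES mice, with 1 marker called in SUS mice. With the platelet level as a covariate, Anxa2 was at 0.57 (adjusted p = 0.284), Anxa1 0.55 (adjusted p = 0.244) and Anxa5 0.25 (adjusted p = 0.652) for SUS vs. CON, and 30 of all genes passed. Neutrophil markers summed to 16.8 to 538 CPM in CON, 42.9 to 1743 in SUS and 21.3 to 918 in RES mice, with 0 of 8 tested markers called. With the neutrophil level as a covariate, Anxa2 was at 0.94 (adjusted p = 0.00763), Anxa1 at 0.59 (adjusted p = 0.0188) and Anxa5 at 0.48 (adjusted p = 0.0240). Dendritic cell markers were lower in all 6 SUS libraries, at 30.4 to 97.1 CPM against 121 to 155 in CON mice. Their part in the annexin differences was not tested.

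In the other cell types, no annexin passed the adjusted p in any stress contrast with edgeR or DESeq2, and the shares of all genes given here are edgeR's. In Ly6Clow monocytes 0 of 8 members were called for SUS vs. CON (0.0871% of all genes), RES vs. CON (0.0154%) and SUS vs. RES (0.0%), with 1 member at an unadjusted p below 0.05 in each, where 9.51%, 9.67% and 3.79% of all genes were. These were Anxa1 for SUS vs. CON (0.34, SE 0.14, adjusted p = 0.418 by edgeR's quasi-likelihood test) and Anxa6 for RES vs. CON (0.25, SE 0.12, adjusted p = 0.490) and SUS vs. RES (-0.29, SE 0.10, adjusted p = 1.00). The medians of Anxa6 were 142, 146 and 187 CPM in CON, SUS and RES mice, with 4 of 6 RES libraries above and 1 below all CON libraries. Anxa2 was at 197 to 289 CPM in CON, 216 to 299 in SUS and 245 to 307 in RES mice, and its log2 fold changes were 0.10 and 0.16. Red cell markers in the same libraries summed to 295 to 1259 CPM in CON, 859 to 2691 in SUS and 877 to 3919 in RES mice. Natural killer cell markers summed to 259 to 879, 369 to 962 and 525 to 1412 CPM in the same order. The part of either in these values was not tested.

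In B cells, 7 members could be tested, Anxa3 being too low. None was called for SUS vs. CON (0.00568% of all genes), RES vs. CON (0.0%) or SUS vs. RES (0.0%), and 2, 1 and 0 members had an unadjusted p below 0.05, beside 3.42%, 3.18% and 1.36% of all genes. Anxa5 was at 10.7 to 23.2 CPM in CON and 20.8 to 31.7 in SUS B cells, 5 of 6 above all CON libraries (0.60, SE 0.20, adjusted p = 0.999 by edgeR's quasi-likelihood test). Anxa4 was at 1.94 to 8.26 and 7.32 to 10.6 CPM, 4 of 6 above (0.77, SE 0.28, adjusted p = 0.999). Markers of other cells moved with that contrast, and their part was not tested. Natural killer cell markers summed to 3.02 to 6.02 CPM in CON and 13.1 to 35.3 in SUS B cells, with no overlap, and 5 of 6 SUS libraries were above all CON libraries for neutrophil (mean 4.33 against 0.404 CPM), Ly6C-high monocyte (14.9 against 6.94) and platelet markers (59.6 against 32.9). Anxa2 was at 2.72 to 8.77 CPM in CON and 7.64 to 18.2 in RES B cells, 4 of 5 above (0.86, SE 0.31, adjusted p = 1.00). In RES B cells, 5 of 5 libraries were above all CON libraries for natural killer cell markers (mean 15.7 against 4.78 CPM). For neutrophil markers 4 were (1.46 against 0.404), for Ly6C-high monocyte markers 3 (11.1 against 6.94) and for platelet markers 1 (37.7 against 32.9). The part of these markers was not tested either. In T cells, again without Anxa3, none of 7 was called for SUS vs. CON (0.0265%), RES vs. CON (0.0%) or SUS vs. RES (0.0%), and 1, 1 and 0 had an unadjusted p below 0.05, beside 4.8%, 4.11% and 2.39% of all genes. Anxa2 was at 16.1 to 52.1 CPM in CON and 32.7 to 65.7 in SUS T cells (0.56, SE 0.21, adjusted p = 0.721 by edgeR's quasi-likelihood test). Ly6C-high monocyte markers summed to 69.0 to 157 CPM in CON, 113 to 201 in SUS and 109 to 202 in RES T cells. For them, 3 of 6 SUS and 3 of 5 RES libraries were above all CON libraries. The part of these markers in the T cell values was not tested. Anxa4, with 5 to 62 counts per CON library of T cells, was at 0.206 to 1.67 CPM in CON and 0.408 to 4.73 in RES mice (1.72, SE 0.78, adjusted p = 1.00).

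**Figure D5:**
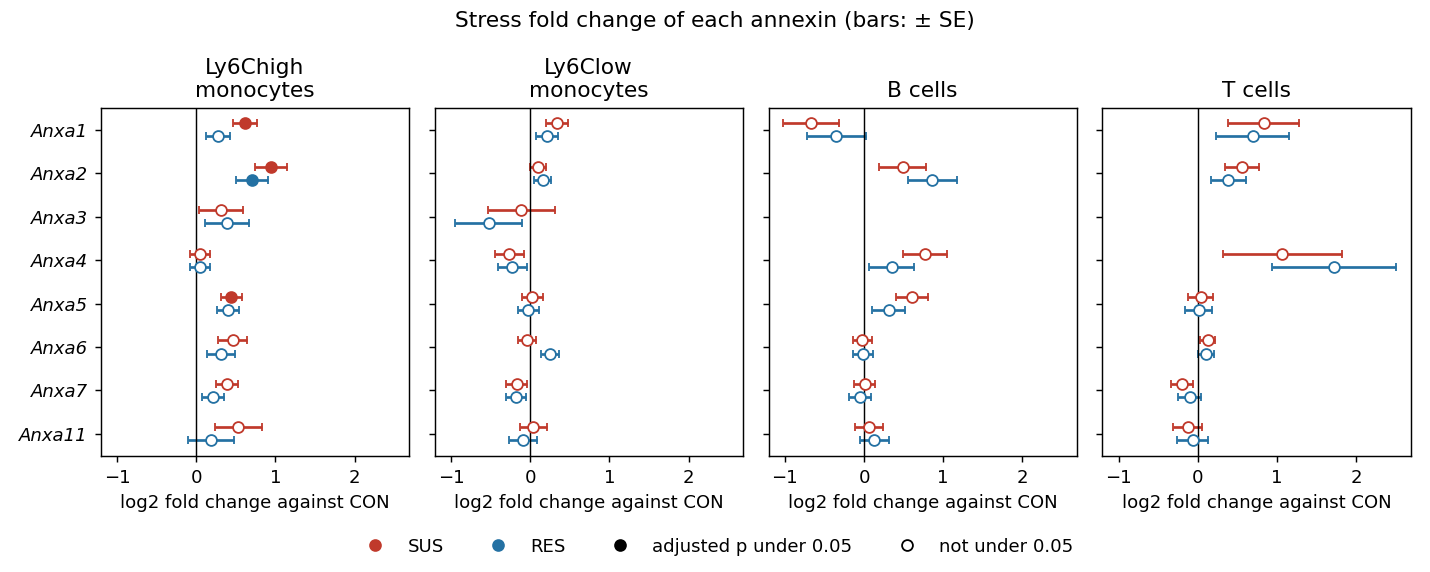
Log2 fold change of each member for SUS vs. CON and RES vs. CON in the 4 cell types, with error bars of 1 SE from the edgeR fit within the cell type. In Ly6Chigh monocytes all 8 values are above 0 in both contrasts, at medians of 0.45 and 0.30, and in the other cell types they lie on both sides of 0.

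Whether a stress difference in Ly6Chigh monocytes exceeded that in another cell type was tested as an interaction in one fit to all 68 libraries, called at an adjusted p below 0.05 over 24248 genes. None of the 8 members was called in any of the 6 interactions with edgeR or DESeq2. For SUS vs. CON, edgeR called 0.363% of all genes against Ly6Clow monocytes, 3.22% against T cells and 6.18% against B cells. For RES vs. CON, the shares in the same order were 0.099%, 0.713% and 1.65%. The members that had an unadjusted p below 0.05 numbered 3, 2 and 3 for SUS vs. CON and 0, 1 and 0 for RES vs. CON, again in that order, where 14.2%, 18.7% and 21.2% of all genes had one for SUS vs. CON and 11.7%, 17.7% and 18.2% for RES vs. CON. The smallest adjusted p-values belonged to Anxa7 against T cells (0.61, SE 0.19, adjusted p = 0.0556) and Anxa1 against B cells (1.33, SE 0.48, adjusted p = 0.0812) for SUS vs. CON, and to Anxa4 against T cells for RES vs. CON (-1.66, SE 0.56, adjusted p = 0.0987). The last passed without T cell RES library 61 (-1.94, adjusted p = 0.0404) and with libraries 52 and 70 kept under their labels (-2.20, adjusted p = 0.0411). Keeping library 70 puts a library with B cell markers among the T cells of RES mice. It held 10.6 CPM of Anxa4, against a mean of 2.78 in the T cell RES libraries used. The setting that keeps it therefore cannot test the difference in T cells.

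Among 10 binding partners of annexins, 9 could be tested in Ly6Chigh monocytes (Dysf could not), and 3 were called up for SUS vs. CON (3.45% of all genes were called), all of them S100 proteins. S100a10, the Anxa2 light chain, was at 119 to 155 CPM in CON and 151 to 505 in SUS mice (1.01, SE 0.21, adjusted p = 0.00379). S100a11, the Anxa1 partner, was at 80.2 to 107 and 117 to 350 CPM (1.31, SE 0.23, adjusted p = 0.00145), and S100a6, a partner of Anxa2 and Anxa11, at 180 to 253 and 277 to 870 CPM (1.06, SE 0.22, adjusted p = 0.00288). For S100a11 and S100a6 no SUS library overlapped the CON range. S100a4, also on the list, did not pass (0.58, SE 0.39, adjusted p = 0.374 by edgeR's quasi-likelihood test). On the adjusted p alone, Pdcd6 rose by 0.56 (adjusted p = 0.0234) and Ahnak, a large scaffold bound by the Anxa2 complex, fell by 0.53 (adjusted p = 0.0136). The list's median was 0.56, beside -0.05 for all genes. Its summed level, which follows the most abundant genes, was lower in SUS mice, at 6673 to 10932 CPM against 10960 to 12197 in CON mice. The mean log2 level over the 10 genes was higher, at 6.34 in SUS against 5.92 in CON mice. For RES vs. CON none was called, and S100a10 (0.76, adjusted p = 0.0416) and S100a6 (0.77, adjusted p = 0.0401) passed the adjusted p alone.

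Of the formyl peptide receptors, Fpr1 was called up for SUS vs. CON (2.20, SE 0.46, adjusted p = 0.00350), from 1.15 to 5.69 CPM in CON to 3.83 to 22.3 CPM in SUS mice, with overlap. Fpr2, the main Anxa1 receptor, had 0.73 (adjusted p = 0.0948), and Fpr3 was too low to test. Of 8 genes that expose or flip phosphatidylserine, the Anxa5 ligand, the scramblase Plscr1 (1.10, adjusted p = 0.0286) and the flippase Atp11a (1.44, adjusted p = 0.00333) were called up, and the median was 0.29. Of 6 glucocorticoid-induced genes none was called by edgeR. Fkbp5 (0.87, adjusted p = 0.0108) and Zbtb16 (-0.89, adjusted p = 0.0455) passed the adjusted p alone in opposite directions, and the median was 0.23. S100a4, Pdcd6, Ahnak, Fpr2, Fkbp5 and Zbtb16 were named after their values had been seen. Of the 25 genes of these lists that could be tested, 11 passed the adjusted p for SUS vs. CON, as 12.6% of all genes did. With the neutrophil level as a covariate 11 passed. With red cell or platelet markers as a covariate 0 passed, where 2 and 30 of all 16955 genes did. With the red cell covariate the log2 fold changes were 0.35 for S100a10, 0.84 for S100a11, 0.34 for S100a6, 1.67 for Fpr1, 0.52 for Plscr1 and 1.06 for Atp11a (adjusted p from 0.488 to 0.909 by edgeR's quasi-likelihood test), a setting applied to these lists after the data had been seen. No gene of these 4 lists passed the adjusted p in Ly6Clow monocytes, B cells or T cells for either stressed group against CON with edgeR. As interactions with Ly6Chigh monocytes, S100a11 passed against Ly6Clow monocytes (1.14, SE 0.28, adjusted p = 0.0468) and against B cells (1.35, SE 0.27, adjusted p = 0.00138), and S100a10 passed against B cells (1.27, SE 0.27, adjusted p = 0.00265).

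The genes most like each member in level over all 68 libraries (Pearson's r of log2 values, among 9159 protein-coding genes) mainly followed the cell types, and all points shared their library's depth. The nearest genes were Lamp2, Pitpna and Idh1 for Anxa1 (r = 0.976 to 0.971), Gsr, Smpdl3a and Mocos for Anxa2 (0.977 to 0.970) and Rac1, Ifi211 and Cd300lg for Anxa5 (highest 0.974). For Anxa3 they were Sgms2, Clec4a2 and Ms4a8a (highest 0.973), for Anxa4 Grn, Myadm and Arhgap26 (0.942), for Anxa7 Sgpl1, Ctsc and Taldo1 (0.951) and for Anxa6 Eef1b2, Sh3gl1 and Ass1 (0.917). Anxa11, which hardly varied between cell types, reached only 0.629 with Sec24c, ahead of Trabd and Samm50.

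Within the 18 Ly6Chigh libraries, after the mean of each condition had been subtracted, Anxa2 was most like Csnk2b (r = 0.981), Aldoa (0.972) and G6pdx (0.972). The nearest genes were Mthfd1, Rbx1 and Hint1 for Anxa1 (highest r = 0.874) and Cct5, Rpl41 and Pomp for Anxa5 (0.913). For Anxa6 they were Shisa5, Lsp1 and Ly6e (0.946), for Anxa7 Tgm1, Ap2a2 and Myadm (0.885) and for Anxa11 Stat6, Syngr2 and Aldh3b1 (0.941). Anxa3 was nearest to Pilrb1, Hivep2 and Epb41l1 (0.840), and Anxa4 to Ghitm, B2m and Ppp3cc (0.754). Among the members, Anxa2 varied with Anxa6 (0.875), Anxa7 (0.809), Anxa11 (0.774) and Anxa5 (0.752), whereas Anxa3 had r between -0.157 and 0.284 with the others. SUS library 14, the highest for Anxa2, Anxa6 and Anxa11, is among these 18 libraries.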

How the data were processed

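Per the labels and the study's methods, RNA of sorted cells was made into libraries with a stranded total RNA kit, and the authors aligned reads to mm10 with HISAT2 and counted them per gene with htseq-count and an Ensembl annotation (strand option not given in the sources used here). The deposited table holds these raw counts, whole numbers that were not normalized. Of 52636 gene identifiers, 52489 matched symbols of GENCODE M21. The members and all gene lists were chosen with earlier results of these data known. Levels are CPM after TMM scaling over 68 libraries. Tests used edgeR 4.0.16 (quasi-likelihood, robust, TMM, filterByExpr, limma 3.58.1, R 4.3.3), fitted within each cell type for stress, over the CON libraries for cell types and over 12 groups for interactions, with Benjamini-Hochberg adjustment over all genes tested. Calls needed an adjusted p below 0.05 and an absolute log2 fold change above 1, as in the study's methods. Stress fold changes are from the fit within the cell type, and SE is the log2 fold change divided by the root of F. Likeness used log2(CPM + 0.5), with 3 genes named per member among protein-coding genes with a mean of at least 10 CPM in 1 cell type. All 8 members are named in each main comparison, and list genes where called. DESeq2 1.42.0, other scaling, filters, GC and length offsets, marker covariates and leaving out libraries were alternatives. The script was tested on simulated data. Libraries 52 and 70 were left out because their markers go against their labels. Promoters are RefSeq's, of GRCm38.p6, and protein sequences were not used here.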

Additional observations from a re-analysis of the deposited data

Results flagged for a closer look

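Of 95 combinations of a member and a group of libraries, 13 held 1 library far from the rest, where chance gives about 1 in 20. In Ly6Chigh monocytes these were Anxa11 in SUS library 14 (74.5 CPM, others 24.7 to 41.8), Anxa4 in RES library 6 (69.8 CPM, others 48.2 to 55.3) and Anxa7 in RES library 18 (152 CPM, others 97.8 to 116). In Ly6Clow monocytes of CON mice, library 24 was apart for both Anxa6 (173 CPM, others 139 to 143) and Anxa11 (38.9 CPM, others 24.2 to 26.3).

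Among B cells, Anxa1 was far higher in CON library 38 (34.9 CPM, others 5.41 to 9.46) and in RES library 37 (16.9 CPM, others 6.68 to 9.32), and Anxa2 was far lower in CON library 44 (2.72 CPM, others 6.71 to 8.77). Anxa11 stood out in SUS library 51 (50.6 CPM, others 23.0 to 30.9). Anxa3, close to 0 in lymphocytes, stood out in B cell libraries 39 of SUS (0.127 CPM) and 37 of RES mice (0.143 CPM) and in T cell libraries 59 of CON (0.462 CPM) and 57 of SUS mice (2.71 CPM, others up to 0.0963).

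The libraries left out of all comparisons also held annexin signal above the highest CON library of their label. Library 52, labelled B cells, had 62.9 CPM of Anxa2 against at most 8.77, 28.8 of Anxa5 against 23.2, 446.5 of Anxa6 against 310.0 and 0.0284 of Anxa3 against 0. Library 70, labelled T cells, had 8.89 CPM of Anxa1 against at most 8.46, 10.6 of Anxa4 against 1.67 and 47.0 of Anxa7 against 46.2. By markers, library 52 resembled T cells and library 70 B cells, so the labelled cell type is not their proper reference. CON means in T cells were 34.0 CPM for Anxa2, 32.7 for Anxa5, 404 for Anxa6 and 0.0997 for Anxa3. In B cells the CON means were 12.5 CPM for Anxa1, 5.36 for Anxa4 and 52.9 for Anxa7.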

How the results depend on the processing

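No paired analysis was possible because no replicate number is shared between groups in the labels. In Ly6Chigh monocytes, the members called for SUS vs. CON (0 with both thresholds) numbered 3 on the adjusted p alone and 0 to 1 when 1 library was left out. On the adjusted p alone (3), the number was 0 with the red cell covariate, 0 with the platelet covariate and 2 to 5 when 1 library was left out. For RES vs. CON, 1 member was counted on the adjusted p alone, and that number was 0 with size factors, the red cell, neutrophil or platelet covariate, 2 with only both groups fitted and 0 to 2 when 1 library was left out. Only genes with 10 counts in every library gave 3 called members for Ly6Chigh against Ly6Clow monocytes, 3 for each monocyte type against B cells and 2 for B against T cells, because members with low counts left the test. With the fold threshold dropped instead, B against T cells gave 7 members in place of 4. The Anxa4 interaction with T cells for RES vs. CON was called (1 member) with libraries 52 and 70 kept. That setting puts library 70, which had B cell markers, among the T cells of RES mice. When 1 library was left out, 0 to 1 members were called. In the fit to all 12 groups, Anxa6 (adjusted p = 0.00830) and Anxa7 (adjusted p = 0.0249) passed for SUS vs. CON by edgeR's quasi-likelihood test. No called direction turned, and 179 uncalled fold changes changed sign. Genes called for SUS vs. CON in Ly6Chigh monocytes numbered 585, 2 with the red cell covariate, 24 with the platelet covariate and 1223 in the fit to all groups. For RES vs. CON the numbers were 169, 0, 1 and 1055, with 506 by DESeq2 and 259 with only both groups. Low counts limit Anxa3 in lymphocytes and Anxa4 in T cells.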

Other observations

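The 4 annexins outside the set were low, and Anxa10 and Anxa13 were close to 0 in all groups. Anxa8 was noticed in Ly6Clow monocytes after the values had been seen. Its counts were 0 to 4 in CON libraries (5 in all), 0 to 25 in SUS and 23 to 233 in RES libraries, or 0.558 to 5.38 CPM in RES mice against at most 0.114 in CON and 0.517 in SUS mice. All RES libraries were above all others. The RES vs. CON difference had an unadjusted p of 0.000168 and an adjusted p of 0.103 by edgeR's quasi-likelihood test, so it did not pass. Anxa9 in Ly6Chigh monocytes was at 0.436 to 5.34 CPM in CON and 3.19 to 7.90 in SUS mice (log2 fold change 1.09, SE 0.49, adjusted p = 0.152 by the same test).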
